A study of Homo sapiens with 12 samples.

Results

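The genes described here are the ligands and receptor chains of the interleukin-6 (IL6) cytokine family, with the feedback gene SOCS3, in COV362 and PEO1, which are 2 established lines from human high-grade serous ovarian carcinoma. The members were the rows of the deposited gene table named IL6, IL11, LIF, CLCF1, IL6ST, IL6R, IL11RA, LIFR, OSMR and SOCS3, selected by gene name. Earlier results of these data were known when they were chosen. All 10 were found among the 26485 genes of the table. RNA sequencing of 12 libraries gave 4 groups of 3 replicates, lettered A, B and C: PEO1 with 20 nM prexasertib, PEO1 with DMSO vehicle, COV362 with 20 nM prexasertib, and COV362 with DMSO vehicle. Prexasertib inhibits the checkpoint kinases CHK1 and CHK2. The labels call the lines parental and give all of them 1 growth medium, which contains fetal bovine serum and insulin. They give no treatment time, and nothing in them says that replicates are separate cultures, so p-values measure only the spread between these samples, which may be technical.

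Cytokines of this family bind a ligand-specific receptor chain and then engage the shared signal-transducing chain gp130, encoded by IL6ST. IL6 and IL11 use the chains IL6R and IL11RA, whereas LIF pairs gp130 with LIFR, and oncostatin M uses OSMR or LIFR. The assembled receptor activates JAK kinases and the transcription factor STAT3, which induces SOCS3, an inhibitor that binds gp130 and closes the loop. Ovarian carcinoma cells are known to secrete IL6, which accumulates in ascites. Transcript levels measure neither secreted protein nor STAT3 phosphorylation.

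Sequence windows of 300 bases around the RefSeq start site (250 bases before it and 50 from it on, GRCh38.p14) were at hand for 8 of the 10 members. LIF and CLCF1 had no entry. The windows of IL6 (chr7:22726950-22727249, plus strand), IL11 (chr19:55370414-55370713, minus strand) and IL6R (chr1:154405093-154405392, plus strand) are shown because IL6 and IL11 rose with prexasertib in both lines and IL6R in PEO1. Capitals mark matches, on either strand, to the AP-1 letters TGANTCA, the CRE half-site TGACG or CGTCA, the STAT letters TTCNNNGAA and the NF-kB consensus.
IL6: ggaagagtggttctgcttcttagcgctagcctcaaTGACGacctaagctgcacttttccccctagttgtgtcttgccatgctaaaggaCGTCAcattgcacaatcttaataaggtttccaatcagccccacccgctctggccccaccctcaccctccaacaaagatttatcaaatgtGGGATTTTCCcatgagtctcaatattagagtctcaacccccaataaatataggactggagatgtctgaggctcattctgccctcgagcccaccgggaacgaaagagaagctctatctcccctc
IL11: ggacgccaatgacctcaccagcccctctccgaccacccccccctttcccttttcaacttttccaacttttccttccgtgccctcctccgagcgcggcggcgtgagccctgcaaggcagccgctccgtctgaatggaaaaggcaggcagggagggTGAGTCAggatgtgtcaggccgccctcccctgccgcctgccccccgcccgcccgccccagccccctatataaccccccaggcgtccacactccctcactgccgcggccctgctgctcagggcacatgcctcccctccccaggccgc
IL6R: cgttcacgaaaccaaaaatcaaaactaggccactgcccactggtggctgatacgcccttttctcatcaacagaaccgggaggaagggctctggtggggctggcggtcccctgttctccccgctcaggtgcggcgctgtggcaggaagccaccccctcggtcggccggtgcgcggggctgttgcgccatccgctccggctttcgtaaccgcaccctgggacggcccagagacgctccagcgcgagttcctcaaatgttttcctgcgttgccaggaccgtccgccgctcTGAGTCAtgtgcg
The IL6 window held CRE half-sites 215 and 162 bases before the start and the NF-kB match GGGATTTTCC 73 bases before it, with no AP-1 match. IL11 held 1 AP-1 match, TGAGTCA, 96 bases before the start. IL6R held the same 7 letters, in its case at base 38 counted from the start. No match overlapped another. Of all 35116 windows searched in the same way, 7.71% held the AP-1 letters, 24.6% a CRE half-site, 7.66% the STAT letters and 11.3% an NF-kB match. Windows of members that were not called with the drug held matches too. OSMR had the AP-1 match TGATTCA at base 4 counted from the start, and IL6ST and IL11RA had NF-kB matches. SOCS3 had a CRE half-site and LIFR had STAT matches. A match here describes letters only. In the counts table the outermost exons of IL6 and IL6R begin inside these windows, upstream of the RefSeq start.

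Library totals ran from 9390790 counts (COV362 DMSO A) to 18262805 (COV362 DMSO B). Values are counts scaled to the library size with TMM factors (CPM), and 14498 genes passed the filter on low counts, all 10 members among them. Calls were made with edgeR's quasi-likelihood (QL) test at a p under 0.05 after Benjamini-Hochberg (BH) adjustment for all of these genes. The A libraries leaned to short genes. Across genes, Spearman's rho of a gene's deviation from its group mean with its exon length was -0.413 to -0.348 in the A libraries, against -0.0536 to 0.439 in the others. Epithelial ovarian carcinoma markers were present, 8 of 8 averaging 1 CPM or more in PEO1 and 7 of 8 in COV362, where the adhesion gene CDH1 averaged 0.285 CPM with prexasertib and 0.346 CPM with DMSO. Of the markers of other cell types, the fibroblast gene LUM had 0 counts in every library and the leukocyte gene PTPRC at most 1 count in any group. Others were detected. The fibroblast gene COL1A1 averaged 4.65 to 6.18 CPM over the 4 groups, the leukocyte gene CD14 1.37 CPM with prexasertib and 4.27 CPM with DMSO in PEO1, and the endothelial gene CDH5 45.2 CPM with prexasertib and 73.9 CPM with DMSO in COV362. In bulk RNA, fewer cells of a kind and less RNA per cell cannot be told apart.

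Prexasertib raised the ligand transcripts IL6 and IL11 in both lines, and IL6R in PEO1, while no member was called lower in either line. Of the 10 members, 3 were called higher in PEO1, where 29.3% of all tested genes were called in either direction, 14.7% higher and 14.6% lower. In COV362 2 were called higher, where 0.828% of genes were called in either direction, 0.607% higher and 0.221% lower. The median log2 fold change over the members was 0.20 in PEO1 (0.01 over all tested genes) and 0.02 in COV362 (-0.01 over all tested genes). The 3 of 10 in PEO1 is close to the background share in either direction, while the 2 of 10 in COV362 is above it. The treated and DMSO libraries did not overlap for 5 members in PEO1 (50.1% of all genes) and for 2 in COV362 (14.5%).

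IL6 (chr7:22727147-22732002 in hg38, plus strand, 5 exon blocks) encodes the founding cytokine of the family. In PEO1 it stood at 127.6, 115.6 and 133.6 CPM in prexasertib libraries A, B and C, against 38.12, 32.03 and 35.96 CPM in DMSO libraries A, B and C. Every prexasertib library lay far above every DMSO library, and the replicates differed little within a group. The rise was 3.55-fold (log2 1.83 ± 0.19, SE; edgeR QL, BH-adjusted p = 2.49e-05).

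In COV362 IL6 stood at 6.388, 11.04 and 10.65 CPM with prexasertib, against 3.629, 3.122 and 4.888 CPM with DMSO. The groups did not overlap, though the A library of the prexasertib group lay close to the highest DMSO library. The rise was 2.42-fold (log2 1.28 ± 0.22; edgeR QL, BH-adjusted p = 0.015) and rested on 30 to 181 counts a library. It was no longer called without COV362 DMSO B (log2 1.12, adjusted p = 0.0968), without COV362 prexasertib C (1.17, 0.0859), in limma-voom (1.29, 0.0525) or with only the 6 COV362 libraries in the fit (1.28, 0.287). IL6 shares 53 exon bases, 4.48% of its exons, with LOC541472 on the opposite strand. The library kit does not keep the strand, and that gene had 274 counts over all 12 libraries.

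IL11 (chr19:55364382-55370463, minus strand, 5 exon blocks) encodes interleukin-11, a cytokine known for roles in blood platelet formation and in fibrosis. It showed the largest fold change of the 10 members in each line. PEO1 held 7.869, 3.572 and 5.372 CPM with prexasertib (134, 65 and 89 counts), against 0.4569, 0.7601 and 0.275 CPM with DMSO (7, 14 and 5 counts). The DMSO libraries were thus near the detection limit, and every prexasertib library was well above them. The rise was 11.04-fold (log2 3.46 ± 0.40; edgeR QL, BH-adjusted p = 4.76e-05).

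In COV362 the IL11 level was 31.61, 19.99 and 21.96 CPM with prexasertib, against 4.113, 3.068 and 4.236 CPM with DMSO. The lowest treated library exceeded the highest DMSO library by a wide margin. The rise was 6.47-fold (log2 2.69 ± 0.32; edgeR QL, BH-adjusted p = 0.00198), and it was called under all 24 alternative settings in both lines. The change of IL11 did not differ detectably between the lines (PEO1 minus COV362, log2 0.77 ± 0.51; adjusted p = 0.369), nor did that of IL6 (0.55 ± 0.29; 0.254).

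**Figure D1:**
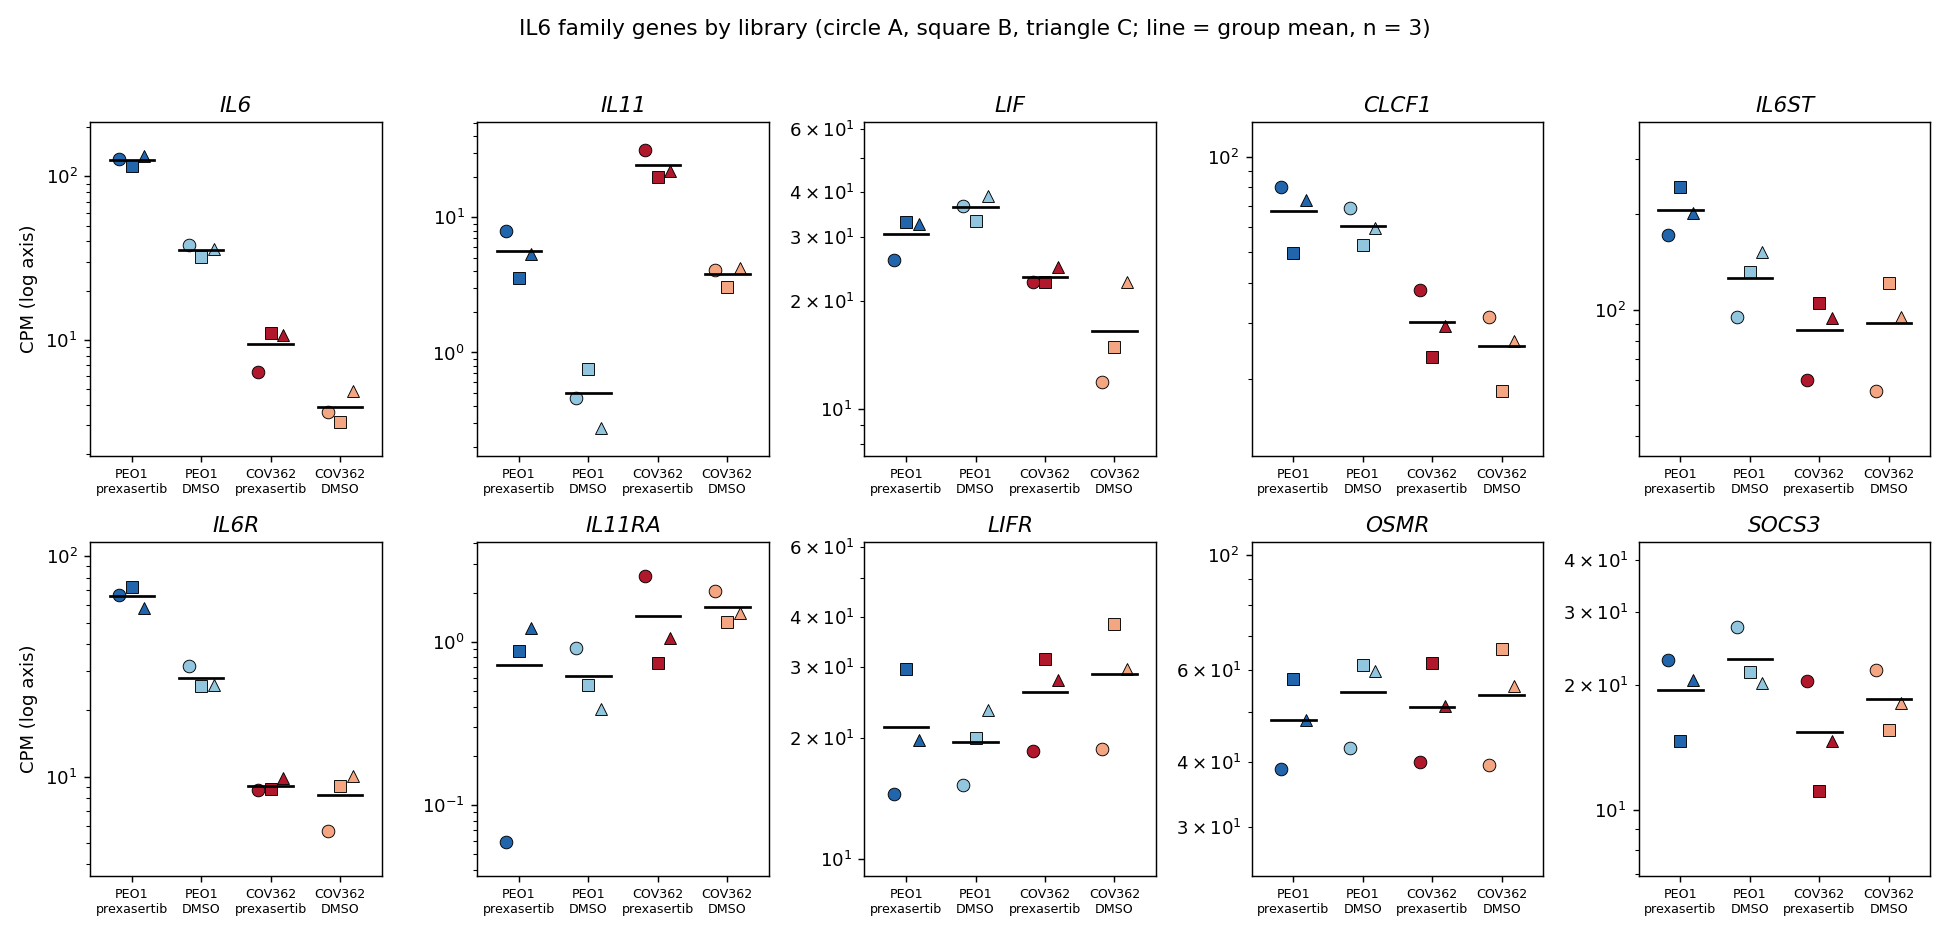
Level (CPM, log axis with its own range for each gene) of the 10 genes in each library, with prexasertib left of DMSO within each line; symbols mark replicates A, B and C and lines the mean of 3 libraries. IL6 and IL11 libraries with prexasertib all lie above those with DMSO in both lines, and IL6R does so in PEO1, at 58.43 to 72.15 against 25.9 to 31.79 CPM.

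LIF (chr22:30240447-30246851, minus strand) encodes leukemia inhibitory factor, which keeps mouse embryonic stem cells undifferentiated in culture. Its levels in PEO1 were 25.96, 33.02 and 32.77 CPM with prexasertib, against 36.62, 33.23 and 39.15 CPM with DMSO. In COV362 they were 22.52, 22.58 and 24.78 CPM with prexasertib, against 11.86, 14.9 and 22.61 CPM with DMSO. All PEO1 libraries with prexasertib lay below all those with DMSO, though 33.02 and 33.23 CPM nearly met, and in COV362 the groups overlapped through DMSO library C. Neither change was called (PEO1 log2 -0.25 ± 0.20, adjusted p = 0.373; COV362 0.49 ± 0.20, adjusted p = 0.327; edgeR QL with BH adjustment).

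Same-letter libraries deviated together in COV362 (weakly for C), and with the letter as a block the LIF change there was called (log2 0.52, adjusted p = 0.0137). LIF was higher with prexasertib in 3 of 3 COV362 letters and in 0 of 3 PEO1 letters. The difference between the lines (log2 -0.74 ± 0.29) had an adjusted p of 0.129. It was called with the block (-0.77, adjusted p = 0.00269) and without COV362 DMSO C (-1.04, adjusted p = 0.0391).

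CLCF1 (chr11:67364168-67374177, minus strand) encodes cardiotrophin-like cytokine factor 1, which acts through the CNTF receptor. It stood at 80.1, 49.78 and 73.09 CPM with prexasertib in PEO1, against 69.12, 52.88 and 59.61 CPM with DMSO. COV362 had 38.08, 23.44 and 29.2 CPM with prexasertib, against 31.33, 18.3 and 26.26 CPM with DMSO. The groups overlapped in both lines, and library B was the lowest of each group. The changes, 0.16 ± 0.23 in PEO1 and 0.26 ± 0.24 in COV362 on the log2 scale, were not called (adjusted p = 0.635 and 0.724).

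Among the receptor chains, IL6R alone was called. IL6R (chr1:154405193-154469450, plus strand, 11 exon blocks) encodes the IL6-binding chain, which also exists as a soluble receptor. In PEO1 it reached 67, 72.15 and 58.43 CPM with prexasertib, against 31.79, 25.9 and 26.12 CPM with DMSO. Each treated library was clearly above each DMSO library. The rise was 2.36-fold (log2 1.24 ± 0.18; edgeR QL, BH-adjusted p = 0.000296). In COV362 IL6R stood at 8.682, 8.822 and 9.83 CPM with prexasertib, against 5.686, 9.093 and 10.04 CPM with DMSO. There the groups overlapped, and 1 DMSO library, A, lay below all others (log2 0.12 ± 0.20; adjusted p = 0.885).

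IL6R was also the only member whose response differed between the lines by the test of that difference (PEO1 minus COV362, log2 1.12 ± 0.27; edgeR QL, BH-adjusted p = 0.0276; 6.1% of all genes were called, 3.14% higher and 2.97% lower). That call was lost when any of 8 libraries was left out: COV362 DMSO B or C, COV362 prexasertib C, PEO1 DMSO A, B or C, or PEO1 prexasertib A or B. The difference over the 12 such fits was 0.96 to 1.30, with adjusted p from 0.00691 to 0.0922.

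IL6ST (chr5:55935097-55994993, minus strand, 18 exon blocks) encodes gp130, the chain shared by the receptors of all these ligands. PEO1 had 172.2, 243.9 and 202.6 CPM with prexasertib, against 95.3, 131.5 and 152.2 CPM with DMSO. The groups did not overlap, and each letter was higher with prexasertib, yet the change was not called (1.63-fold, log2 0.71 ± 0.27; adjusted p = 0.0641). It was called in 8 of 24 alternatives, among them the fits without the 4 A libraries (0.65, adjusted p = 0.00344), with offsets for exon length (0.56, 0.0115), without COV362 DMSO A (0.70, 0.0244), without COV362 DMSO B (0.70, 0.0435) and without COV362 prexasertib A (0.70, 0.0361). COV362 had 60.03, 105.4 and 94.3 CPM with prexasertib, against 55.53, 121.6 and 95.09 CPM with DMSO. These groups overlapped almost fully, with library A the lowest of each (log2 -0.07 ± 0.27; adjusted p = 0.962). The difference between the lines was 0.78 ± 0.38 (adjusted p = 0.222). It was called with the letter as a block (0.76, adjusted p = 3.99e-05), with the block and length offsets (0.46, 0.00234) and without the 4 A libraries (0.76, 0.0377).

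LIFR (chr5:38474963-38595405, minus strand), the LIF receptor, and OSMR (chr5:38845858-38935641, plus strand), the oncostatin M receptor, changed in neither line by the test. LIFR ranged over 14.5 to 29.67 CPM with prexasertib and 15.27 to 23.43 CPM with DMSO in PEO1. In COV362 its range was 18.59 to 31.4 CPM with prexasertib and 18.75 to 38.4 CPM with DMSO. OSMR ranged over 38.76 to 57.75 CPM with prexasertib and 42.56 to 61.51 CPM with DMSO in PEO1. In COV362 it ranged over 40.13 to 61.88 CPM with prexasertib and 39.56 to 66.01 CPM with DMSO. Their log2 changes lay between -0.18 and 0.12, with adjusted p of 0.575 to 0.944. The A library was the lowest of its group in all 4 groups for LIFR, OSMR and IL6ST, whose exons sum to 10.4, 6.147 and 9.101 kilobases. These are 3 of the 4 longest members. The other one, IL6R (6.565 kilobases), had its A library below the group mean in 2 of the 4 groups. The A libraries are those that leaned to short genes, and a part of length in this pattern was not tested.

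IL11RA (chr9:34652185-34661901, plus strand), the IL11-binding chain, was the faintest receptor. It had 1, 16 and 20 counts with prexasertib in PEO1, against 14, 10 and 7 counts with DMSO. In COV362 it had 31, 12 and 18 counts with prexasertib, against 17, 24 and 23 counts with DMSO. At this depth no change was detectable (log2 0.23 ± 0.74 in PEO1, adjusted p = 0.847; -0.17 ± 0.68 in COV362, adjusted p = 0.965), so a change by a factor of 2 could have been missed.

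SOCS3 (chr17:78356777-78360079, minus strand), the feedback inhibitor, was called in neither line. In PEO1 it stood at 22.96, 14.62 and 20.58 CPM with prexasertib, against 27.54, 21.5 and 20.24 CPM with DMSO. In COV362 it stood at 20.39, 11.1 and 14.66 CPM with prexasertib, against 21.66, 15.56 and 18.12 CPM with DMSO. The groups overlapped in both lines, with means somewhat lower with prexasertib (log2 -0.25 ± 0.24 in PEO1, adjusted p = 0.452; -0.26 ± 0.24 in COV362, adjusted p = 0.738). The difference between the lines was 0.01 ± 0.34 (adjusted p = 1).

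**Figure D2:**
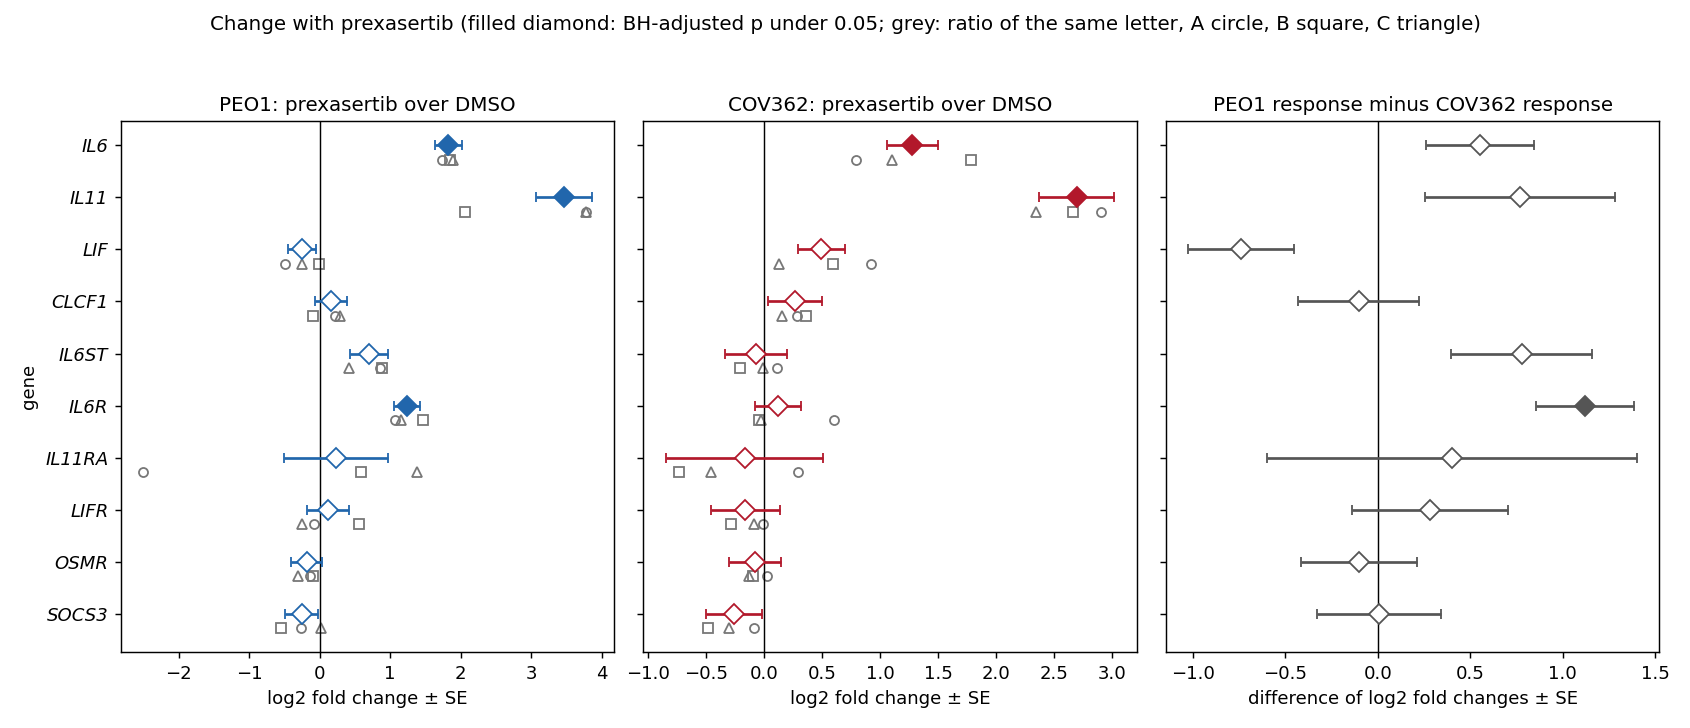
Log2 fold change of each gene with prexasertib over DMSO in PEO1 and in COV362, and the difference of these changes (PEO1 minus COV362), as diamonds with SE; filled diamonds have a BH-adjusted p under 0.05 and grey symbols are the ratios of libraries with the same letter. IL6 and IL11 are filled in both lines, and IL6R in PEO1 and in the difference (1.12 ± 0.27).

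Levels of different genes were set side by side as CPM per kilobase of exon. In PEO1 with prexasertib IL6 was the most abundant member at 106.1 ± 7.73 CPM per kilobase (SD, n = 3), above CLCF1 at 34.3 ± 8.05, with no overlap. In PEO1 with DMSO CLCF1 (30.7 ± 4.14) and IL6 (29.9 ± 2.61) did not differ beyond their spread and led the order. IL6ST followed them at 22.7 ± 3.95 with prexasertib and 13.9 ± 3.16 with DMSO. With prexasertib it overlapped CLCF1, its highest library (26.79) lying above the lowest of CLCF1 (25.23). With DMSO it stood apart below CLCF1 and IL6. IL11 was the lowest of the 10 in PEO1 with DMSO, at 0.209 ± 0.103, and overlapped IL11RA there (0.337 ± 0.149).

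COV362 had a flatter order. With prexasertib CLCF1 (15.3 ± 3.74) led, and neighbours from it down through IL11 (10.3 ± 2.62), IL6ST (9.51 ± 2.60), OSMR (8.32 ± 1.77), IL6 (7.91 ± 2.18), LIF (5.87 ± 0.325) and SOCS3 (5.62 ± 1.71) overlapped one by one. LIFR (2.50 ± 0.637) stood apart below them and above IL6R (1.39 ± 0.0954), which overlapped IL11RA (0.793 ± 0.526). With DMSO IL11 was at 1.6 ± 0.270, below LIFR (2.78 ± 0.946), and CLCF1 (12.8 ± 3.33) again had the highest mean.

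As a share of the summed CPM per kilobase of the 4 ligands, IL6 made up 68.12 to 73.58% with prexasertib in PEO1, against 42 to 43.25% with DMSO. The sum itself averaged 150.4 ± 15.4 with prexasertib and 69.9 ± 7.07 with DMSO. In COV362 the IL11 share was 23.51 to 30.44% with prexasertib, against 7.149 to 7.609% with DMSO. That of CLCF1 was 33.66 to 44.2% with prexasertib, against 53.42 to 67.11% with DMSO. The COV362 sum averaged 39.4 ± 4.18 with prexasertib and 21.9 ± 4.28 with DMSO. None of these 3 shares overlapped between the groups, nor did those of IL11, LIF and CLCF1 in PEO1. In COV362 the share of IL6 did overlap (12.36 to 26.42% with prexasertib, 12.95 to 16.57% with DMSO). So did that of LIF there (13 to 16.11% with prexasertib, 12.62 to 22.87% with DMSO). Shares of 1 sum are not independent of each other.

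**Figure D3:**
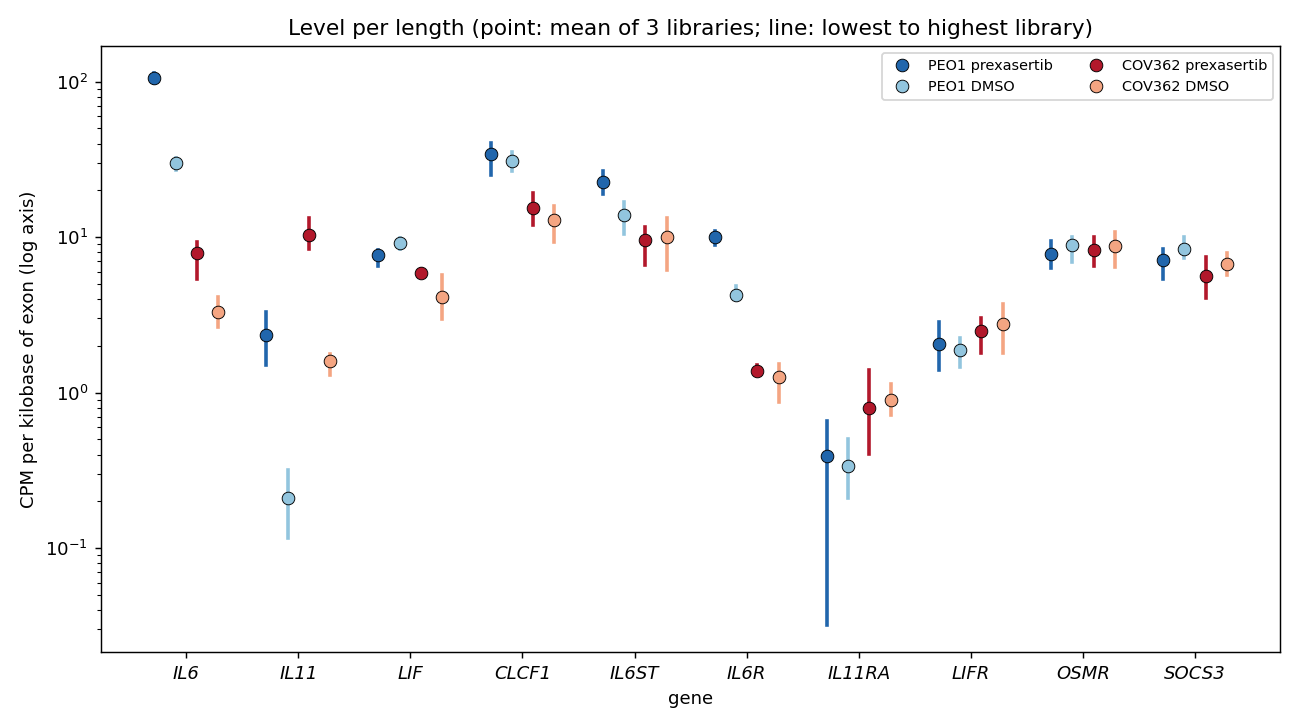
Level of each gene per exon length (CPM per kilobase, log axis) in the 4 groups, as the mean of 3 libraries with a line from the lowest to the highest library. IL6 in PEO1 with prexasertib stands alone at the top, at 106.1, against 29.9 with DMSO, while LIFR, OSMR and SOCS3 lie close together across all 4 groups.

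Without drug the lines differed in 5 of the 10 members, a share not above that of all genes. PEO1 DMSO was called higher than COV362 DMSO for IL6, LIF, CLCF1 and IL6R and lower for IL11, against 57.7% of all tested genes called, 29.1% higher and 28.6% lower. The untreated lines did not overlap for 6 members (63.5% of all genes). The widest gap was in IL6, which averaged 35.4 ± 3.09 CPM in PEO1 and 3.88 ± 0.909 CPM in COV362 (SD, n = 3 each; 9.09-fold, log2 3.18 ± 0.22, edgeR QL, BH-adjusted p = 3.78e-08). IL11 went the other way, averaging 0.497 ± 0.245 CPM in PEO1 and 3.81 ± 0.642 CPM in COV362 (7.45-fold lower, log2 -2.90 ± 0.41, adjusted p = 3.78e-05). IL6R averaged 27.9 ± 3.34 CPM in PEO1 and 8.27 ± 2.29 CPM in COV362 (log2 1.73 ± 0.19, adjusted p = 3.87e-06).

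The remaining ligands were also higher in PEO1. LIF differed by 1.13 ± 0.20 on the log2 scale (adjusted p = 0.000302) and CLCF1 by 1.27 ± 0.24 (adjusted p = 0.000393). IL6ST (0.47 ± 0.27), IL11RA (-1.38 ± 0.72), LIFR (-0.57 ± 0.30), OSMR (0.02 ± 0.22) and SOCS3 (0.33 ± 0.24) were not called, with adjusted p of 0.115 to 0.959. IL6ST was called without COV362 DMSO B (0.74, adjusted p = 0.0379), IL11RA without PEO1 prexasertib A (-1.39, 0.044) and LIFR without COV362 DMSO A (-0.80, 0.0305). This comparison and the drug comparisons share the DMSO libraries.

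Further genes of the pathway were grouped in 5 lists. The other ligands and receptors of the family were mostly silent. Of 10 listed genes 4 were tested, and OSM, the ligand of OSMR, had 0 counts in all 12 libraries. CNTF had 5 counts in all, IL27 1, IL31 2, and the receptor chains CNTFR and IL31RA 25 and 41. None of the 4 tested genes was called higher in either line, and 1 was called lower in PEO1, where 14.6% of all tested genes were. In PEO1 IL27RA, a receptor chain that pairs with gp130 to bind interleukin-27, fell to 25.1 ± 0.781 CPM with prexasertib, against 49.6 ± 1.67 CPM with DMSO (log2 -0.98 ± 0.16; edgeR QL, BH-adjusted p = 0.000608). None of the tested genes was called in COV362.

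The 12 signal transducers, from the JAK kinases and STAT factors to the adaptors GRB2 and SHC1, gave no riser in either line. In PEO1 2 of 12 fell, about the 14.6% of all tested genes that did. STAT5A averaged 2.87 ± 1.15 CPM with prexasertib and 5.12 ± 0.0805 CPM with DMSO (log2 -0.84 ± 0.24, adjusted p = 0.0161), and STAT5B 44.9 ± 6.51 CPM with prexasertib and 60.1 ± 2.92 CPM with DMSO (log2 -0.42 ± 0.15, adjusted p = 0.043). STAT5A was not called without PEO1 prexasertib B (-0.68, adjusted p = 0.0575), nor STAT5B without any 1 of COV362 DMSO C, COV362 prexasertib C, PEO1 DMSO B, PEO1 DMSO C, PEO1 prexasertib A or PEO1 prexasertib C (-0.48 to -0.36, adjusted p = 0.055 to 0.114). STAT3, named here for its place in the pathway, averaged 281.7 CPM with prexasertib and 324.3 CPM with DMSO in PEO1 (adjusted p = 0.296), and 141.7 CPM with prexasertib and 152.9 CPM with DMSO in COV362 (adjusted p = 0.828). In COV362 none was called. The lowest p there was that of JAK1, at 95.2 CPM with prexasertib and 118.8 CPM with DMSO (adjusted p = 0.479). With the letter as a block 1 was called higher and 2 lower in COV362.

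Of 8 negative regulators besides SOCS3, 1 was called with the drug, lower in PEO1, where 14.6% of all tested genes were called lower. CISH, a relative of SOCS3 that STAT5 induces, fell in PEO1 to 4.58 ± 0.522 CPM with prexasertib, against 13.04 ± 1.496 CPM with DMSO (log2 -1.51 ± 0.26; adjusted p = 0.00091). In COV362 PTPN6 had the lowest p, at 7.77 CPM with prexasertib and 9.74 CPM with DMSO (adjusted p = 0.562). Of the 3 proteases that process ligands or shed receptors, FURIN was called lower in PEO1 (23.0 ± 2.05 CPM with prexasertib, 33.2 ± 3.49 CPM with DMSO; log2 -0.53 ± 0.17; adjusted p = 0.0291). Over all tested genes in PEO1, 14.6% were called lower. FURIN was not called without PEO1 DMSO C (-0.51, adjusted p = 0.071), PEO1 prexasertib A (-0.54, 0.0641) or PEO1 prexasertib B (-0.56, 0.0628). ADAM10, a receptor sheddase, had the lowest p in COV362, at 75.0 CPM with prexasertib and 105.6 CPM with DMSO (adjusted p = 0.29). With the block 1 protease was called lower in COV362.

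Genes known to respond to STAT3 or to IL6-type cytokines were called in both directions in PEO1. Of 28 listed, 17 were tested. The liver acute-phase genes CRP and FGA had 0 counts in every library. In PEO1 4 rose and 3 fell (14.7% of all tested genes were called higher and 14.6% lower), with a median log2 change over the tested genes of -0.34 (0.01 over all genes). ICAM1, a leukocyte adhesion molecule, rose to 184.7 ± 15.3 CPM with prexasertib, against 76.1 ± 4.996 CPM with DMSO (log2 1.28 ± 0.21; adjusted p = 0.00057). The survival gene MCL1 rose to 487.3 ± 7.69 CPM, against 253.1 ± 9.71 CPM with DMSO (0.94 ± 0.11; adjusted p = 4.53e-05). IL4R, the interleukin-4 receptor, fell to 14.8 ± 1.93 CPM, against 31.6 ± 1.63 CPM with DMSO (-1.10 ± 0.15; adjusted p = 0.000206).

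The other genes of this list that were called in PEO1, named after their values were seen, were the kinase gene PIM1 (log2 0.58) and the angiogenic factor VEGFA (0.55), both higher, and the cyclin gene CCND1 (-0.47) and the protease inhibitor TIMP1 (-0.67), both lower. PIM1 was not called without any 1 of COV362 DMSO C, COV362 prexasertib C, the 3 PEO1 DMSO libraries, PEO1 prexasertib A or PEO1 prexasertib C (0.39 to 0.59, adjusted p = 0.0576 to 0.205). VEGFA was not called without PEO1 DMSO A (0.42, 0.0729) or PEO1 prexasertib C (0.41, 0.077), nor TIMP1 without PEO1 DMSO A (-0.64, 0.0727) or PEO1 prexasertib B (-0.61, 0.0898).

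In COV362 1 target gene was called. ICAM1 rose to 9.90 ± 1.43 CPM with prexasertib, against 3.55 ± 1.46 CPM with DMSO (log2 1.52 ± 0.25, edgeR QL, BH-adjusted p = 0.0104). It was not called without COV362 prexasertib C (1.51, adjusted p = 0.0569), with only the 6 COV362 libraries in the fit (1.51, 0.284) or at a threshold of 0.01. The median over the 17 tested genes was 0.14 (-0.01 over all genes). With the block 5 were called higher and 1 lower, as the count of all genes called in COV362 grew to 1977, against 120 without it.

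**Figure D4:**
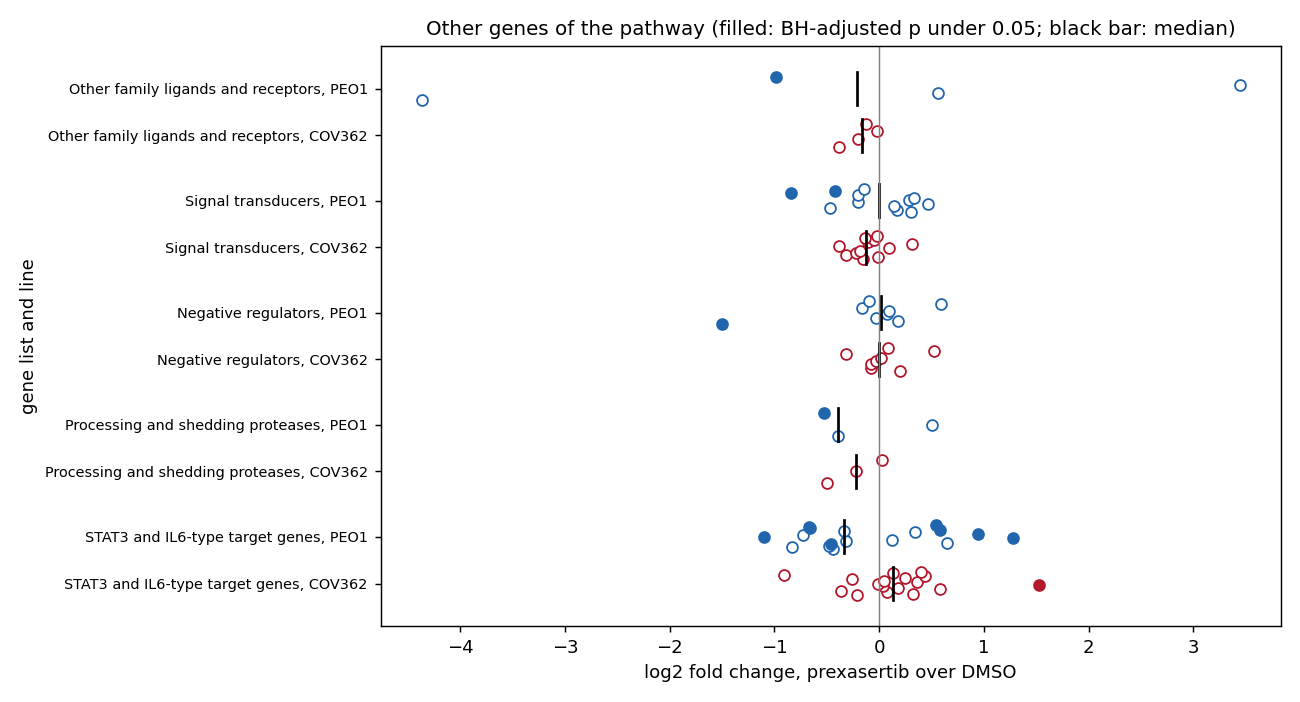
Log2 fold change with prexasertib over DMSO of the tested genes of the 5 pathway lists in each line, with filled circles for a BH-adjusted p under 0.05 and black bars for the median of the list. The only filled circle of COV362 is ICAM1 at 1.52, and the PEO1 target genes lie on both sides of 0; the open circles farthest out, in PEO1, stand for genes with no counts in 1 of the groups compared.

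Markers of the epithelial carcinoma cells moved with the drug in PEO1, where their summed level was 3530 to 4110 CPM with prexasertib, against 6640 to 7760 CPM with DMSO. The sum was carried by keratins such as KRT7 (1450 CPM with prexasertib, 3040 CPM with DMSO). PAX8 (97 CPM with prexasertib, 144 CPM with DMSO) and WT1 (4.49 CPM with prexasertib, 9.35 CPM with DMSO) were lower with prexasertib too. EPCAM (449 CPM with prexasertib, 418 CPM with DMSO), MUC16 (5.33 CPM with prexasertib, 4.87 CPM with DMSO) and CDH1 (101 CPM with prexasertib, 114 CPM with DMSO) did not fall in step. In COV362 the sum was 2320 to 3510 CPM with prexasertib and 2290 to 2830 CPM with DMSO. The 5 fibroblast markers summed to 3.93 to 6.64 CPM with prexasertib and 5.16 to 7.37 CPM with DMSO in PEO1, and to 6.35 to 8.44 CPM with prexasertib and 7.18 to 9.58 CPM with DMSO in COV362. The 4 leukocyte markers, nearly all of it CD14, summed to 0.824 to 2.11 CPM with prexasertib and 3.92 to 5.16 CPM with DMSO in PEO1, and to at most 0.603 CPM in COV362. The 3 endothelial markers summed to 1.32 to 3.62 CPM with prexasertib and 6.43 to 7.38 CPM with DMSO in PEO1, and to 46.5 to 51 CPM with prexasertib and 73.8 to 88.2 CPM with DMSO in COV362, mostly CDH5. The part of these shifts in the results was not tested.

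The genes whose log2 CPM followed that of a member most closely were looked up among 13085 tested genes that averaged 1 CPM or more. The 12 libraries share 2 lines and 2 treatments, so these correlations mostly trace group means and are a description. For IL6 the highest Pearson r over the 12 libraries were those of ZNF165 (0.993), PNP (0.992) and HBEGF (0.992). With each line centred on its own mean they were CWC25 (0.980), DHRS2 (0.980) and HIST1H2BJ (0.979), the last a histone gene with near-identical copies whose counts are uncertain. For IL11 they were RNF41 (0.981), GAS5 (0.963) and DDX27 (0.962) over all libraries, and MAFF (0.991), RNF41 (0.984) and YRDC (0.983) with the lines centred. LIF was followed by SLC6A17, TAPBPL and RELL2 under both measures (0.943 to 0.963 over all libraries, 0.919 to 0.928 centred). SOCS3 was followed by DAZAP1 (0.932), C14orf1 (0.925) and SNHG25 (0.923) over all libraries, and by SSBP3 (0.949), TMEM107 (0.948) and MTFP1 (0.946) centred.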

How the data were processed

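Per the labels, RNA was extracted on columns, and the TruSeq RNA Library Prep Kit v2 was used. This kit enriches polyadenylated RNA and keeps no strand. The submitters' processing notes name the build hg38 and the tools STAR, Subread and featureCounts 1.4.6. Roles and settings are not given in the sources used here. The deposited table holds unnormalized counts of each gene, and per the file headers the table lists exon positions and summed exon length, from which positions and lengths were taken.

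Each of the 4 comparisons (the drug in PEO1, the drug in COV362, the difference between their responses, and the untreated lines) came from 1 fit of 4 group means to 12 libraries in edgeR 4.0.16 under R 4.3.3 (TMM factors, filterByExpr with a minimum count of 10 and total of 15, glmQLFit and glmQLFTest, 8 residual degrees of freedom). A gene was called at a BH-adjusted p under 0.05 over 14498 genes, and SEs are from that fit. The script was tested on simulated counts. Groups came from the sample titles, and no 2 libraries held identical counts. The members and lists were chosen with earlier results of these data known. Named genes were all members and, for each list and drug comparison, the 3 called genes with the largest change among those averaging 1 CPM or more, or the gene with the lowest p where none was called. A gene that this rule takes is not reported here.

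Whether letters pair libraries was checked by correlating the deviations from group means of same-letter libraries. In COV362 r was 0.41 (A), 0.423 (B) and 0.133 (C). In PEO1 it was 0.302, 0.171 and 0.0813. The fit behind the reported calls had no term for the letter in either line. Among the fits, only the alternatives with the replicate block paired the letters, in both lines. Alternatives were other scalings, filters and call thresholds, DESeq2 1.42.0, limma-voom (limma 3.58.1), the replicate block, offsets for a loess trend on exon length, fits of 6 libraries, and leaving out each library or the 4 A libraries. Log2 CPM values for correlations used a prior count of 2. Motifs were searched as exact letters. Counting error alone limits genes such as IL11RA with about 10 counts a library in PEO1.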

Additional observations from a re-analysis of the deposited data

Results flagged for a closer look

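The change with prexasertib differed between the lines, by the test of that difference in edgeR (PEO1 minus COV362, log2, BH-adjusted p), for 1 of the 10 family genes and 4 genes of the pathway lists. Over all tested genes 6.1% were called, 3.14% higher and 2.97% lower. Of the list genes tested, 1 of 4 other family genes and 1 of 8 negative regulators were called lower. Of 17 target genes 1 was higher and 1 lower, and none of 12 signal transducers or 3 proteases was called. IL6R differed by 1.12 (adjusted p = 0.0276), having risen in PEO1 and not been called in COV362. The IL6R difference was not called in 9 of 23 alternatives, 8 of them fits without 1 library (adjusted p up to 0.0922). MCL1 differed by 0.90 (adjusted p = 0.006) and was called under all 23 alternatives. IL4R differed by -1.09 (adjusted p = 0.0138) and kept its call in 22 of 23, the exception being a threshold of 0.01. CISH differed by -1.71 (adjusted p = 0.0203) and was not called without PEO1 DMSO A (-1.67, adjusted p = 0.0517) or without the 4 A libraries (-1.27, adjusted p = 0.051). IL27RA differed by -0.86 (adjusted p = 0.0446) and was not called in 14 of 23 alternatives, 11 of them fits without 1 library (adjusted p up to 0.0896).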

How the results depend on the processing

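The rises of IL11 in both lines and of IL6 and IL6R in PEO1, and the 5 calls between the untreated lines, held under all 24 alternatives. Log2 changes ran from 3.08 to 3.88 (IL11, PEO1), 2.47 to 2.82 (IL11, COV362), 1.71 to 1.87 (IL6, PEO1) and 1.12 to 1.33 (IL6R, PEO1). The rise of IL6 in COV362 was lost in 5 of 24. The cause of these changes was not tested. No fit of the difference between lines was possible with only 6 libraries. Low counts limit IL11RA and, in PEO1 with DMSO, IL11.

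In COV362 the number of family genes called higher, 2 in the report, was 1 in limma-voom, with only 6 libraries and at an adjusted p under 0.01, 1 to 2 when 1 library was left out, and 3 with the replicate block. In PEO1 1 was called lower with the block plus length offsets (OSMR, -0.27, adjusted p = 0.0119). For the difference between the lines 2 were called higher with the block, 3 with the block plus length offsets, 2 without the A libraries, 0 at an adjusted p under 0.01 and 0 to 1 with 1 library left out. There 1 was called lower with the block and 1 with the block plus offsets (LIF, -0.77 and -0.83), and 0 to 1 with 1 library left out. Between the untreated lines 2 were called lower with the block, length offsets, both, or only 6 libraries, 3 without the A libraries, and 1 to 2 with 1 library left out. The higher count, 4 in the report, reached 6 with the block, where IL6ST (0.52, adjusted p = 1.02e-05) and SOCS3 (0.32, 0.049) were added. IL6ST was also called with length offsets (0.46, 0.0173), with both (0.48, 6.42e-06) and without the A libraries (0.40, 0.0254).

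In PEO1 pairing by letter was weak, with r of 0.0813 to 0.302, though letters A and C correlated best with their own letter. The libraries of letter B there, and those of letter C in COV362, did not correlate best with their own letter. In PEO1 the replicate block moved the genes called to 7446, against 4249, and called IL6ST (0.72, adjusted p = 7.41e-08). For the difference between lines it gave 4906 genes, against 885. There it called LIF (-0.77, adjusted p = 0.00269) and IL6ST (0.76, adjusted p = 3.99e-05). It changed no other drug call of a family gene besides LIF in COV362.

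Changes that turned sign were all of uncalled genes. The SOCS3 difference between lines was -0.0337 with median-of-ratios size factors, -0.0334 in DESeq2 and -0.0508 without a filter. In limma-voom IL11RA was -0.364 in PEO1 and -0.0258 in the difference. With length offsets IL6ST, LIFR and OSMR in COV362 were 0.0942, 0.0155 and 0.0289, LIFR in PEO1 was -0.0701 and its difference -0.0856, and OSMR between untreated lines was -0.0426. With the block added these were 0.102, 0.0211, 0.0306, -0.0837, -0.105 and -0.0435. Without the A libraries IL6R in COV362 was -0.0280. Leaving out 1 library gave ranges in COV362 of -0.32 to 0.20 (IL6ST), -0.0697 to 0.27 (IL6R), -0.82 to 0.15 (IL11RA), -0.39 to 0.0950 (LIFR) and -0.26 to 0.0916 (OSMR). In PEO1 they were -0.0304 to 0.29 (CLCF1), -0.40 to 0.72 (IL11RA) and -0.25 to 0.28 (LIFR). For the difference they were -0.30 to 0.0881 (CLCF1), -0.23 to 1.05 (IL11RA), -0.0926 to 0.51 (LIFR), -0.31 to 0.0727 (OSMR) and -0.19 to 0.25 (SOCS3), and between untreated lines -0.16 to 0.19 (OSMR).

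All genes called in COV362 numbered 120, with 10 to 1977 over the alternatives, 524 of them in DESeq2 and 221 with length offsets. The higher share of these calls was 73.3% with TMM and 84.6% on library totals alone. PEO1 had 4249 (2319 to 7618) and the difference 885 (157 to 4906). List counts in PEO1 ranged from 0 to 5 signal transducers lower (2 in the report), 0 to 3 higher (0), 0 to 2 proteases lower (1), 0 to 1 higher (0), 1 to 2 other family genes lower (1), and 2 to 5 target genes higher (4) and 2 to 8 lower (3). In COV362 target genes ranged from 0 to 5 higher (1) and 0 to 3 lower (0), signal transducers from 0 to 1 higher and 0 to 2 lower, and proteases from 0 to 1 lower.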
